A study of Rattus norvegicus with 24 samples.

Results

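Doxorubicin, an anthracycline cancer drug that damages the heart, was compared with its vehicle in cultured neonatal rat ventricular myocytes that had received mimics of both miR-222-3p and miR-455-3p. The comparison holds 6 of the 24 polyA RNA libraries of the series, 3 with doxorubicin and both mimics and 3 with vehicle and both mimics, chosen by their treatment labels alone. All cells came from Sprague-Dawley rats. Each mimic was transfected at 5 nM with Lipofectamine RNAiMax on the day after plating, and doxorubicin or vehicle was added 48 h later for 24 h, so the vehicle cells carried both mimics and the transfection reagent too. The dose reads 4 uM in the sample protocol and 4 mM in the series text, and the protocol spells the second mimic miR-455-ep where the series text has miR-455-3p. The other mimic conditions of the series (miR-222 alone, miR-455 alone and a negative control mimic, each with doxorubicin and with vehicle in 3 libraries) are used below only to show where the response with both mimics stood apart. Which animals or culture days lie behind the replicates is not stated in the labels. A p-value here therefore reflects only the spread between libraries within groups, estimated over all 24 libraries of the series, which may be technical.

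Doxorubicin binds DNA and traps type II topoisomerases on it, and its reduction and its binding of iron give rise to oxidants; in heart muscle cells the damaged DNA, the mitochondria and the contractile apparatus are the parts known to suffer. A microRNA lowers its target messages mostly through its seed, bases 2 to 8 from the 5′ end, which pairs with sites in the target. miR-222-3p is known for lowering the cell cycle inhibitor Cdkn1b, and miR-455-3p for roles in cartilage and fat cells. The series asks whether these microRNAs, alone and together, protect against the drug.

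The mature rat sequences that share the names of the mimics are shown because they are what all 6 libraries had in common, with the seed in capitals. They come from RefSeq on the build GRCr8, and the sequence of a mature microRNA says nothing of any chemical change made to a commercial mimic. The last sequence, rno-miR-221-3p, was not given as a mimic and is shown only for the seed it shares with miR-222-3p.
rno-miR-222-3p: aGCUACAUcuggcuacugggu
rno-miR-455-3p: gCAGUCCAcgggcauauacacu
rno-miR-221-3p: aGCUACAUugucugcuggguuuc
The mature sequence of miR-222-3p lies on chrX:6022682-6022702, plus strand, and that of miR-455-3p on chr5:81704881-81704902, plus strand. The seeds of the 2 mimics differ. Of 693 mature rat microRNAs in the table, 2 carry the miR-222-3p seed, the other being miR-221-3p shown above, and 1 carries the miR-455-3p seed.

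The totals of the 6 libraries ran from 19619549 to 25750309 counts, with 12289 to 13322 genes at 10 counts or more. They were not alike within their groups. Mitochondrially encoded transcripts took 13.1%, 21.3% and 20.2% of the counts in doxorubicin replicates 1, 2 and 3, against 8.16%, 6.82% and 24.9% in vehicle replicates 1, 2 and 3. Vehicle replicate 3 stood apart from the other vehicle libraries: a chi-square of its counts against theirs was 508 and 575 per degree of freedom, while vehicle replicates 1 and 2 differed by 7.80 from each other, closer than any pair of doxorubicin libraries (125 to 355). Vehicle replicates 1 and 2 still differed by more than counting error and were kept as 2 libraries. Results are given with each library's value, and each call of doxorubicin against vehicle with both mimics named below was made again in all 6 fits that left out 1 of these libraries (the left-out fits) unless its sentence says otherwise. The calls of a difference between mimic conditions did not hold in this way, as given beside them. Tnnt2, cardiac troponin T and a defining gene of cardiomyocytes, was at a high level in every library. It stood at 5753, 9938 and 6729.5 CPM with doxorubicin, against 2609, 2639 and 5283 with vehicle. CPM are counts scaled to library totals corrected by the trimmed mean of M-values. Not every marker was high: the homeodomain factor that marks the heart lineage, named below, had 2.69, 0.684 and 0.762 CPM with doxorubicin.

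Doxorubicin changed 2158 of 14303 tested genes (15.1%) in cells with both mimics, 1123 higher (7.85%) and 1035 lower (7.24%), as tested with edgeR (quasi-likelihood F), counting genes whose Benjamini-Hochberg adjusted p was below 0.05. Of these, 811 were at least 2-fold higher and 809 at least 2-fold lower, and 118 and 157 passed 8-fold. The 3 doxorubicin libraries lay wholly above or wholly below the 3 vehicle libraries for 1017 of the genes called higher and 896 of those called lower. Without asking for a call, 1745 tested genes (12.2%) had every doxorubicin library above every vehicle library and 1773 (12.4%) the reverse. The median log2 fold change of all tested genes was -0.07. In bulk RNA fewer cells of a type and less RNA per cell cannot be told apart. The fit used all 24 libraries for its estimate of spread, and some libraries of the other arms were also close to each other. With the miR-222 mimic, vehicle replicates 1 and 2 differed by a chi-square of 5.79 per degree of freedom. With the miR-455 mimic it was 6.98 for vehicle replicates 1 and 3, and 7.81 to 9.79 between doxorubicin libraries. Whether these close libraries lowered the estimated spread was not tested. A fit of the 6 libraries alone called 5 genes, all lower, with 2255 at an unadjusted p under 0.05, and DESeq2 on the same 6 called 1340. In the fits that left out 1 library the number of calls ran from 1330 without vehicle replicate 1 to 2914 without vehicle replicate 3, with 1371 without vehicle replicate 2 and 1377 without doxorubicin replicate 3, and 1020 of the 2158 genes (47.3%) were called in all 6 such fits. In what follows "rose" and "fell" are used of genes that passed the test, and the value after ± is a standard error (SE), here that of doxorubicin over vehicle on the log2 fold scale.

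Among the genes at 5 CPM or more, the largest rises were in genes that were low without the drug. Slc4a11, a membrane transporter of the bicarbonate transporter family, had 5.21, 18.9 and 7.15 CPM with doxorubicin, against 0.194, 0.297 and 0.321 CPM with vehicle, a log2 fold change of 5.24 ± 0.51 (adjusted p = 5.98e-06). Scube3, a secreted protein with EGF-like repeats, had 46.7, 12.8 and 35.1 CPM with doxorubicin, against 3.49, 1.71 and 3.07 CPM with vehicle. Scube3 rose by this test, the log2 fold change being 3.52 ± 0.40 (adjusted p = 1.54e-05). Both genes were far above the vehicle range in every doxorubicin library, although the doxorubicin values themselves spread widely. Ppp2r2c, a regulatory subunit of protein phosphatase 2A, stood at 7.78, 3.36 and 7.32 CPM with doxorubicin, against 0.388, 0.335 and 0.0916 CPM with vehicle. Ppp2r2c rose by a log2 fold change of 4.46 ± 0.61 (adjusted p = 7.38e-05). Nptx1, a neuronal pentraxin, stood at 7.18, 5.35 and 3.87 CPM with doxorubicin, against 0.0388, 0.186 and 0.549 CPM with vehicle. For Nptx1 the log2 fold change was 4.42 ± 0.71, with an adjusted p of 0.000307. The other genes of the 10 with the largest rises were Bmp8b, Ephb6, Rbp2, Fam167a, Cst6 and Upk1b, with log2 fold changes from 3.54 to 5.27; the Bmp8b call ended without vehicle replicate 1.

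Some genes had no count in any vehicle library. Bhlhe23, a basic helix-loop-helix transcription factor, had 2.65, 1.37 and 2.28 CPM with doxorubicin and 0 in all 3 vehicle libraries, at least 54.0-fold higher when the vehicle group is set at its limit of 3 counts over the group. Trpv6, a calcium channel, was at least 36.0-fold higher, with 2.09, 0 and 1.93 CPM with doxorubicin against 0 with vehicle, and Sytl3 at least 26.4-fold, with 0.299, 2.61 and 0.644 CPM against 0. The highest mean among these genes, that of Rnf113a1, came from doxorubicin replicate 1 alone (8.16, 0 and 0 CPM, against 0 with vehicle), and its adjusted p was 0.186. Dmbx1 and Lpal2, at least 32.9-fold and 24.2-fold higher, had too few counts to be tested. Of these genes Bhlhe23 alone had counts above 10 in all 3 doxorubicin libraries (62, 22 and 39).

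The largest falls included transcription factors of the heart, a potassium channel and receptors. Depp1, a target of FOXO factors linked to autophagy, had 0.256, 0.249 and 0.293 CPM with doxorubicin, against 46.8, 44.8 and 21.5 CPM with vehicle. Depp1 fell, with a log2 fold change of -7.12 ± 0.66 and an adjusted p of 3.29e-06. Chrm2, the muscarinic acetylcholine receptor of the heart, had 0.684, 1.06 and 1.05 CPM with doxorubicin, against 36.8, 33.8 and 80.5 CPM with vehicle. Chrm2 fell by this test, the log2 fold change being -5.76 ± 0.54 (adjusted p = 3.29e-06). The groups were far from overlapping in both genes. Gata5, a GATA factor of the early heart, had 0.983, 0 and 0.234 CPM with doxorubicin, against 32.5, 32.6 and 13.2 CPM with vehicle. Gata5 fell by a log2 fold change of -5.89 ± 0.74 (adjusted p = 3.32e-05). Perm1, a muscle regulator of mitochondrial genes, had 2.14, 0.684 and 1.29 CPM with doxorubicin, against 69.1, 70.2 and 12.4 CPM with vehicle. For Perm1 the log2 fold change was -5.18 ± 0.97, with an adjusted p of 0.00112. Of the vehicle libraries, replicate 3 was the lowest for Perm1, Gata5 and Depp1 and the highest for Chrm2, but it lay above all doxorubicin libraries in each. The others of the 10 largest falls were A4galt, Pcare, Kcnj11, Hand1, Adrb1 and Myadml2, with log2 fold changes from -7.59 to -5.28.

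**Figure D1:**
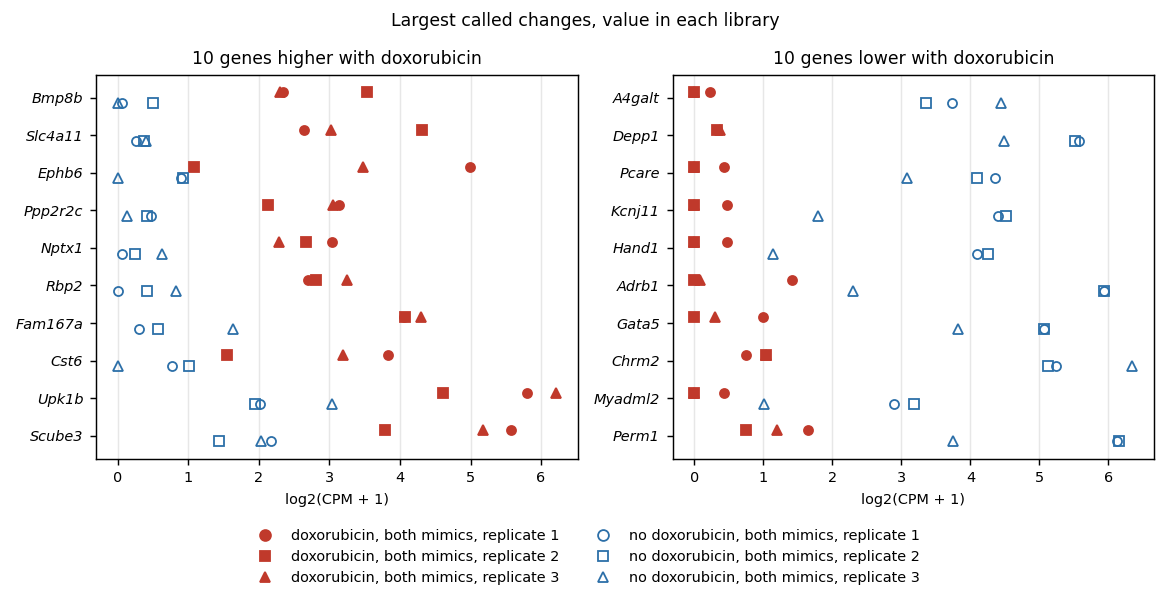
Expression as log2(CPM + 1) of the 10 genes with the largest rises (left) and falls (right) in each library; filled symbols are doxorubicin with both mimics, open symbols vehicle with both mimics, and the shape gives the replicate. The 3 filled symbols lie wholly to 1 side of the 3 open ones in every row, which the choice of the genes required; Slc4a11 reached 5.21, 18.9 and 7.15 CPM with doxorubicin against 0.194, 0.297 and 0.321 CPM with vehicle.

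The genes were next read as 44 lists, 36 of pathways and 8 of cell type markers, with 796 distinct genes, of which 769 were in the table and 748 had counts enough to be tested. Members that were not tested are counted in no share below. Against the background of 7.85% higher and 7.24% lower, a list whose share lies near these values is described by its members alone. The plot of list members shows the 36 pathway lists.

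**Figure D2:**
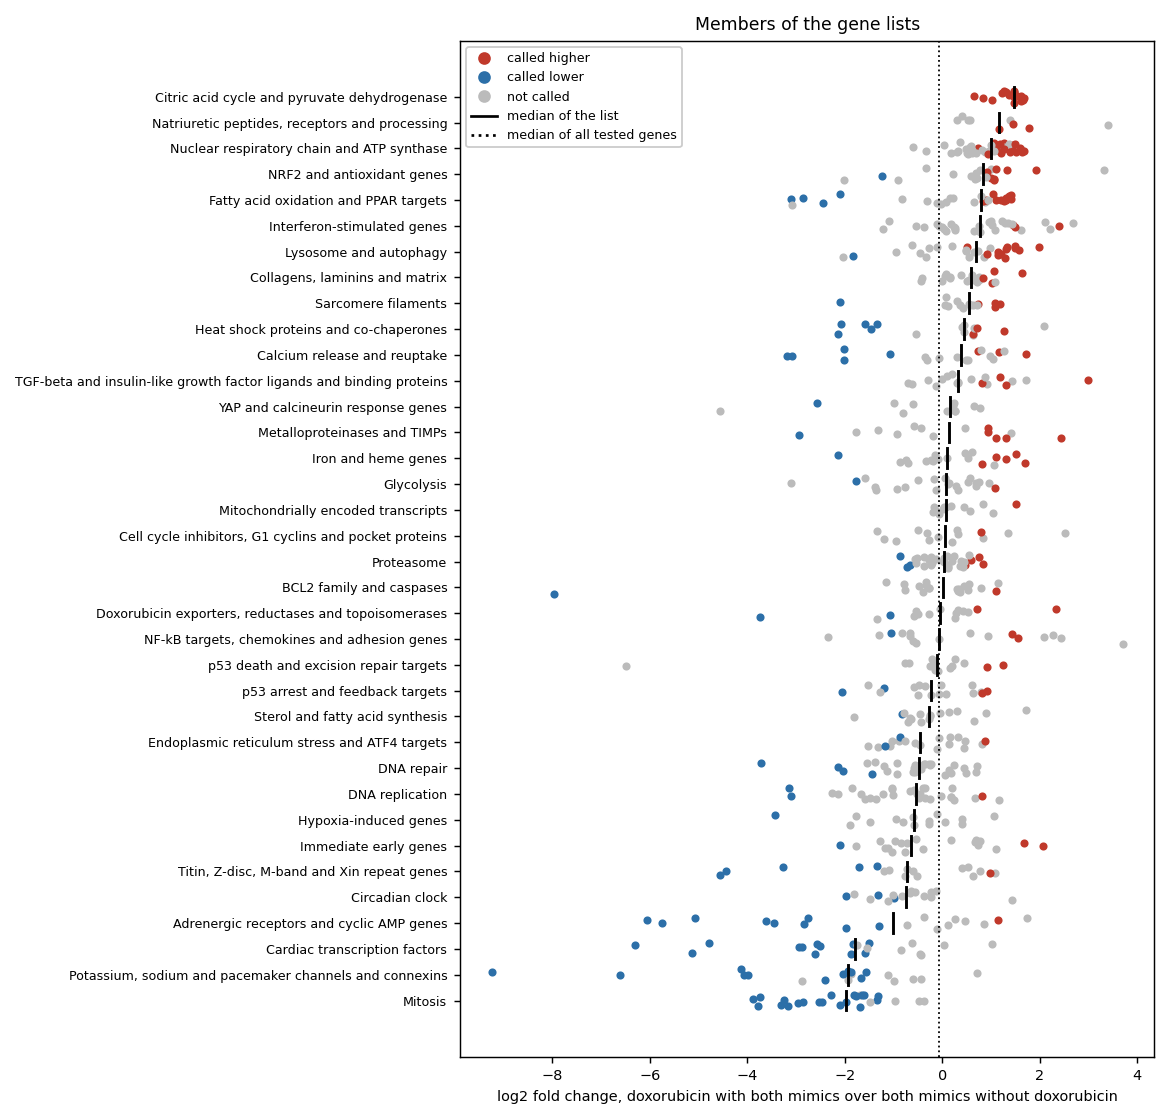
Log2 fold change of every tested member of 36 gene lists, doxorubicin with both mimics over vehicle with both mimics; red points were called higher, blue called lower, grey not called, black bars are list medians and the dotted line is the median of all tested genes, -0.07. The citric acid cycle list lies wholly to the right of 0 with a median of 1.47, and the mitosis list wholly to the left with a median of -1.98; Kcna5 and Bik had no count with doxorubicin, so their fitted positions at the far left are not measured folds.

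Genes of the citric acid cycle rose. The citric acid cycle oxidises acetyl groups in the mitochondrial matrix, and pyruvate dehydrogenase feeds it with carbon from glucose. All 16 tested members of that list were called higher, with a median log2 fold change of 1.47; leaving out 1 library gave 13 to 15. Pdhb, the beta subunit of the pyruvate dehydrogenase core, had 872, 796 and 921 CPM with doxorubicin, against 262, 290.3 and 268 CPM with vehicle. Pdhb rose, with a log2 fold change of 1.66 ± 0.15 and an adjusted p of 3.29e-06. Idh3g, a subunit of the NAD-linked isocitrate dehydrogenase, had 542, 569 and 692 CPM with doxorubicin, against 211, 205 and 203 CPM with vehicle (log2 fold change 1.54 ± 0.17). The vehicle values of both genes were tight, including replicate 3, and every doxorubicin library was more than 2 times above them. Suclg2, of succinyl-CoA ligase, and Mdh2, the mitochondrial malate dehydrogenase, rose by log2 fold changes of 1.47 ± 0.17 and 1.61 ± 0.19.

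The respiratory chain list, the nuclear genes of the electron carriers and of ATP synthase, had 19 of 42 tested members higher and none lower, with a median log2 fold change of 1.01; 15 to 20 were higher when 1 library was left out. Sdha, the flavoprotein of complex II that also serves the citric acid cycle, had 1473, 1652 and 1672 CPM with doxorubicin, against 570.0, 596 and 510.4 CPM with vehicle, with no overlap. Of complex I, Ndufs1 had 1221, 1796 and 1585 CPM with doxorubicin, against 408, 432 and 589 CPM with vehicle. Ndufs1 rose by this test, the log2 fold change being 1.69 ± 0.23 (adjusted p = 6.54e-05). Ndufa10, of the same complex, rose by a log2 fold change of 1.44 ± 0.19. The 13 transcripts encoded by the mitochondrial genome gave 1 call: Mt-co1 was called higher, the other 12 were not, and the median log2 fold change was 0.07. Mt-co1, a subunit of cytochrome oxidase, had 72546, 181451 and 124920.0 CPM with doxorubicin, against 34607, 30442 and 66672 CPM with vehicle, and was called in 2 of the 6 left-out fits (not without doxorubicin replicates 2 or 3 or vehicle replicates 1 or 2). Without vehicle replicate 3, the library with the largest mitochondrial share, 4 of the 13 were called higher.

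Fatty acid oxidation supplies much of the energy of the mature heart, and its enzymes are induced by PPAR factors with the coactivator Ppargc1a. Of 27 tested members of this list 11 rose and 4 fell, with 7 rising without doxorubicin replicate 1, doxorubicin replicate 3 or vehicle replicate 3. Enzymes were among those that rose: Acadl, which opens the oxidation of long-chain acyl groups, had 1389.9, 1342 and 1525 CPM with doxorubicin, against 581, 571 and 575 CPM with vehicle. Acadl rose by a log2 fold change of 1.30 ± 0.16 (adjusted p = 3.32e-05). Decr1, for unsaturated fatty acids, and Etfa, which passes the electrons on, rose by log2 fold changes of 1.41 ± 0.20 and 1.32 ± 0.21. The regulator went the other way: Ppargc1a had 2.35, 6.59 and 2.58 CPM with doxorubicin, against 16.4, 15 and 51.3 CPM with vehicle. For Ppargc1a the log2 fold change was -2.85 ± 0.45, with an adjusted p of 0.000291. Vehicle replicate 3 was the highest library for this gene, and all doxorubicin libraries were below all vehicle libraries. The other members that fell were the PPAR factor Ppara (log2 fold change -3.10 ± 0.82), the pyruvate dehydrogenase kinase Pdk4 (-2.45 ± 0.75) and the acyl-CoA synthetase Acsl1 (-2.10 ± 0.69), which complete the 4. The Ppara call ended without doxorubicin replicate 3, that of Pdk4 without doxorubicin replicate 1 or 3 or vehicle replicate 1 or 2, and that of Acsl1 in every left-out fit but that without vehicle replicate 3. Without doxorubicin replicate 1 or vehicle replicate 1 or 2, 2 members fell, and without doxorubicin replicate 3, 1.

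Glycolysis, which breaks down glucose in the cytosol, had 1 of 22 tested members higher and 1 lower. Hk1, the hexokinase that traps glucose in the cell, had 44.3, 30.9 and 42.5 CPM with doxorubicin, against 139.5, 139.9 and 124 CPM with vehicle. Hk1 fell, with a log2 fold change of -1.78 ± 0.21 and an adjusted p of 1.97e-05. Ldhb, the lactate dehydrogenase subunit favoured by the heart, had 2088, 1853 and 1966 CPM with doxorubicin, against 1084, 1075 and 628 CPM with vehicle. Ldhb rose by this test, the log2 fold change being 1.08 ± 0.24 (adjusted p = 0.00481). Of 15 hypoxia-induced genes Egln3, an oxygen-sensing prolyl hydroxylase, fell to 24, 54.7 and 22.7 CPM with doxorubicin, against 469, 469.6 and 151 CPM with vehicle, a log2 fold change of -3.43 ± 0.84. Vegfa, the vascular growth factor, was not called (adjusted p = 0.192), with 516, 728 and 442 CPM with doxorubicin, against 2118, 2158 and 412 CPM with vehicle. Vehicle replicate 3 was the low library in both lists: the mean log2(CPM + 1) of the glycolysis list was 8.75, 8.20 and 8.13 with doxorubicin, against 9.09, 9.12 and 6.95 with vehicle, and that of the hypoxia list 5.87, 6.33 and 5.75 against 7.10, 7.13 and 5.23. The part of that library's state in these lists was not tested further than by leaving it out, which left 1 glycolysis gene higher and 2 lower.

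**Figure D3:**
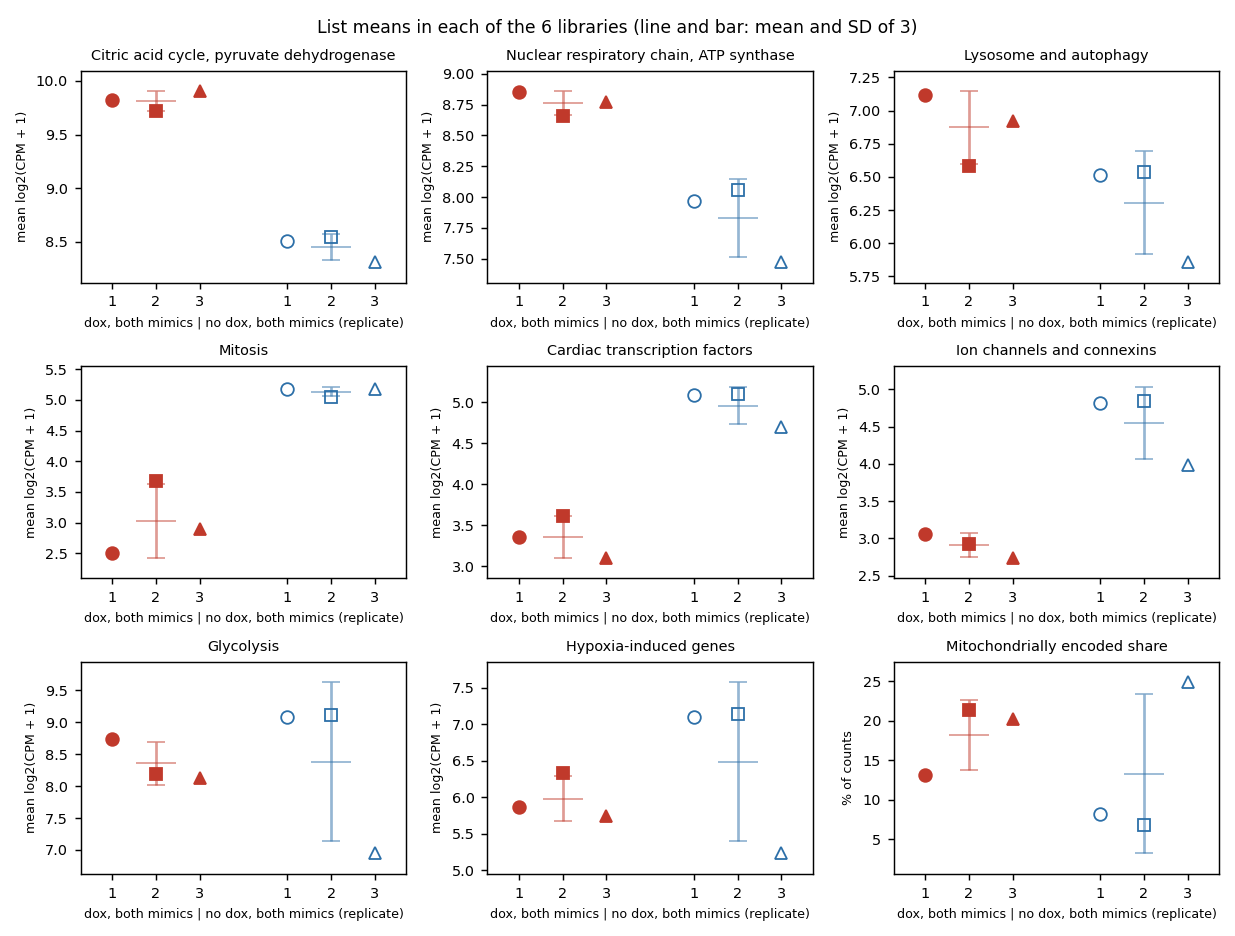
Mean log2(CPM + 1) of the tested members of 8 lists, and the percentage of counts from mitochondrially encoded transcripts, in doxorubicin replicates 1 to 3 (left, filled) and vehicle replicates 1 to 3 (right, open), with the mean and SD of each group of 3. The groups are apart for the citric acid cycle (9.82, 9.72 and 9.90 with doxorubicin, against 8.50, 8.54 and 8.31 with vehicle) and for mitosis (2.50, 3.68 and 2.90 against 5.18, 5.05 and 5.18), while for glycolysis and the hypoxia-induced genes vehicle replicate 3 lies far below the other vehicle libraries.

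Genes against oxidants followed. NRF2 turns on enzymes that make reducing power and detoxify quinones, and 7 of 20 tested members of its list rose while 1 fell. None fell without doxorubicin replicate 1 or 3 or vehicle replicate 1 or 2, and 2 did without doxorubicin replicate 2 or vehicle replicate 3. Nqo1, which reduces quinones such as those of anthracyclines, had 319.5, 196 and 280.4 CPM with doxorubicin, against 94.3, 91.1 and 25.1 CPM with vehicle. Nqo1 rose by a log2 fold change of 1.92 ± 0.41 (adjusted p = 0.0031). Gstm1, a glutathione transferase, had 53.8, 97 and 76.5 CPM with doxorubicin, against 30.1, 27.9 and 32.1 CPM with vehicle. For Gstm1 the log2 fold change was 1.33 ± 0.26, with an adjusted p of 0.0016. Me1, a source of NADPH, rose by a log2 fold change of 1.06 ± 0.19. Hmox1, the heme oxygenase that NRF2 also drives, was not called: it had 47.4, 89.5 and 24.6 CPM with doxorubicin, against 314, 324 and 11.1 CPM with vehicle, where vehicle replicate 3 was far below the others.

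Among iron and heme genes 5 of 19 rose and 1 fell; 2 rose without vehicle replicate 1, 3 without vehicle replicate 2 or doxorubicin replicate 1, and 3 fell without vehicle replicate 3. Slc39a14, an importer of iron and zinc, had 31.1, 25.3 and 34.9 CPM with doxorubicin, against 149.8, 156 and 96.2 CPM with vehicle. Slc39a14 fell, with a log2 fold change of -2.14 ± 0.29 and an adjusted p of 7.38e-05. Fech, which inserts iron into heme, had 110.0, 140.2 and 129.9 CPM with doxorubicin, against 39.6, 37.7 and 55.2 CPM with vehicle (log2 fold change 1.52 ± 0.29). Heph, an iron oxidase of export, rose by a log2 fold change of 1.70 ± 0.37. The transferrin receptor Tfrc had 505, 431 and 576 CPM with doxorubicin, against 164, 188 and 351 CPM with vehicle (log2 fold change 1.10 ± 0.36, adjusted p = 0.0442), a call made in 2 of the 6 left-out fits (not without doxorubicin replicates 1 or 3 or vehicle replicates 1 or 2).

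Of the genes that handle the drug, Abcb1a, the efflux pump known as P-glycoprotein, had 236, 136 and 286 CPM with doxorubicin, against 32.9, 34.7 and 61.9 CPM with vehicle. Abcb1a rose by this test, the log2 fold change being 2.35 ± 0.30 (adjusted p = 3.32e-05). The lowest doxorubicin library was well above the highest vehicle library. Top2a, the topoisomerase II of dividing cells and a target of the drug, had 2.74, 20 and 5.8 CPM with doxorubicin, against 145, 123 and 113 CPM with vehicle. Top2a fell by a log2 fold change of -3.75 ± 0.77 (adjusted p = 0.0025). In this list of 15 tested genes 2 rose and 2 fell; Akr1b1, an aldose reductase, was called higher in 3 of the 6 left-out fits (not without doxorubicin replicates 1 or 3 or vehicle replicate 3), and Top3a was called lower in 1 of the 6 left-out fits (not without doxorubicin replicates 1, 2 or 3 or vehicle replicates 1 or 2).

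Mitosis genes fell. Of 25 tested members 20 were called lower and none higher, the median log2 fold change was -1.98, and 15 to 22 were lower in the fits that left out 1 library. Bub1b, a kinase of the spindle checkpoint, had 1.54, 3.05 and 1.7 CPM with doxorubicin, against 24, 19.7 and 18.7 CPM with vehicle. Plk1, which drives entry into and progress through mitosis, had 2.01, 4.42 and 3.69 CPM with doxorubicin, against 35.5, 35.8 and 23.9 CPM with vehicle. For Plk1 the log2 fold change was -3.24 ± 0.42, with an adjusted p of 4.03e-05. Ttk, another checkpoint kinase, had 2.31, 2.43 and 2.17 CPM with doxorubicin, against 13.3, 12.3 and 27.9 CPM with vehicle. Ttk fell, with a log2 fold change of -2.95 ± 0.41 and an adjusted p of 7.38e-05. Cenpf, a kinetochore protein, had 2.65, 11.9 and 5.8 CPM with doxorubicin, against 60.4, 44.4 and 76 CPM with vehicle. Cenpf fell by this test, the log2 fold change being -3.16 ± 0.47 (adjusted p = 0.000145). In all 4 genes vehicle replicate 3 lay far above the doxorubicin libraries, as the other vehicle libraries did, and doxorubicin replicate 2 was the highest of the treated libraries.

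Promoters of these genes are shown because the members moved together. A further reason is that mitosis genes are known to be regulated through a CCAAT box and a cell cycle homology region, CHR. These elements are bound by the NF-Y and DREAM complexes. The windows run from 250 bases before to 50 after the gene start in RefSeq on GRCr8, on the gene's own strand, and the capitals mark CCAAT and the CHR letters TTTGAA on either strand, where the reverse reads ATTGG and TTCAAA.
Bub1b (chr3:126016817-126017116, plus strand): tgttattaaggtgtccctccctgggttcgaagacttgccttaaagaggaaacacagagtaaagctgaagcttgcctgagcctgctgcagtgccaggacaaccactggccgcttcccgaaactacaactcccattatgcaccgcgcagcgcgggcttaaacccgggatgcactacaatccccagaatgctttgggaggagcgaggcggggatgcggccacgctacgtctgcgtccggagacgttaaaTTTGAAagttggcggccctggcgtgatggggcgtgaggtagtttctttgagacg
Plk1 (chr1:186147408-186147707, plus strand): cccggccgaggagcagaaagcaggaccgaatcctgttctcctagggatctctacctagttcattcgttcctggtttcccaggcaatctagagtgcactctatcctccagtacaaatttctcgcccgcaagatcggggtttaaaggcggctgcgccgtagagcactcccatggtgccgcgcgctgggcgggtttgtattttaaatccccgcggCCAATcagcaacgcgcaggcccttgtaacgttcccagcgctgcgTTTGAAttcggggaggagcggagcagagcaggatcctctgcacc
Ttk (chr8:93634389-93634688, plus strand): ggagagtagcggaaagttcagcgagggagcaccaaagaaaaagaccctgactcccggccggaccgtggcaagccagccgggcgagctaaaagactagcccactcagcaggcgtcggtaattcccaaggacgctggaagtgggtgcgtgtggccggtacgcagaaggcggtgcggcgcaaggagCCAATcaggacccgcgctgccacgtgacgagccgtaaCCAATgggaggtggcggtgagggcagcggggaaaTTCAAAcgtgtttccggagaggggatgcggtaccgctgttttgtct
Cenpf (chr13:103760837-103761136, minus strand): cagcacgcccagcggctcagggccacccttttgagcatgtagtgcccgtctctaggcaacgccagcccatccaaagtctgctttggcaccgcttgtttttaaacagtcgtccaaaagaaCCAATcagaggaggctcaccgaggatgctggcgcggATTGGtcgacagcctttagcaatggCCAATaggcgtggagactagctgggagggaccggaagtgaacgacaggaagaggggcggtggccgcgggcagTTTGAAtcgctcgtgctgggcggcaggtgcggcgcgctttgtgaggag
Of the 25 tested mitosis genes 22 had a promoter in the table. CCAAT was in 15 of 22 (68.2%), against 37.7% of all 27457 promoters, and TTTGAA was in 15 of 22 (68.2%), against 18.1% of all. Both were in 11 of 22 (50%), against 7.25% of all. Birc5 and Prc1, which were not called, carried both, while Kif2c, which fell, carried neither. The motifs do not overlap in letters. For the citric acid cycle genes the NRF1 motif was in 2 of 14 promoters (14.3%), against 4.71% of all, and the ERR letters AAGGTCA in 0 of 14, against 4.37% of all; in the respiratory chain list they were in 5 and in 4 of 36 promoters (13.9% and 11.1%). These are matches of letters in the reference, not measured binding.

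Genes of DNA synthesis gave few calls. Of 30 tested replication genes 2 fell and 1 rose. Mcm5, of the replicative helicase, had 1.97, 0.498 and 2.69 CPM with doxorubicin, against 17.5, 21.8 and 6.82 CPM with vehicle. Mcm5 fell by a log2 fold change of -3.15 ± 0.51 (adjusted p = 0.000319). E2f8, a repressor of the E2F family, fell by a log2 fold change of -3.09 ± 0.76, with no doxorubicin library over 1 CPM. Of 29 repair genes 4 fell: Xrcc2 and Rad54l, of homologous recombination, by log2 fold changes of -1.43 ± 0.36 and -3.73 ± 0.96, with Palb2 and Fancd2 of the Fanconi pathway called lower in 3 and in 0 of the left-out fits; without doxorubicin replicate 3 or vehicle replicate 3, 2 repair genes fell. Ccnd1, the G1 cyclin, was the 1 member of 14 called in its list, at 176, 106 and 131 CPM with doxorubicin, against 87.1, 101 and 50.2 CPM with vehicle, in 3 of the 6 left-out fits (not without doxorubicin replicates 1 or 3 or vehicle replicate 3). Without doxorubicin replicate 2, 2 members were higher and 2 lower, and without vehicle replicate 3, 2 were higher and 3 lower. Cdkn1b, the known target of miR-222, had 13.1, 20.8 and 13.4 CPM with doxorubicin, against 34.3, 34.1 and 23.2 CPM with vehicle, and was not called (adjusted p = 0.0577).

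The targets of p53, the factor that DNA damage stabilises, were mostly not called, as was true of all tested genes (15.1% called, 7.85% higher and 7.24% lower). Of 17 tested arrest and feedback targets 2 rose and 2 fell, and of 14 death and excision repair targets 2 rose. With 1 library left out, 1 to 3 of the arrest list rose and 1 or 2 fell, and 0 to 2 of the death list rose. Cdkn1a, the cell cycle inhibitor that p53 induces, had 619.8, 155 and 332 CPM with doxorubicin, against 557, 629.6 and 119 CPM with vehicle. Cdkn1a was not called, with a log2 fold change of -0.24 ± 0.57 and an adjusted p of 0.832. Mdm2, which degrades p53, had 190.3, 564 and 304 CPM with doxorubicin, against 227, 258 and 194 CPM with vehicle. Mdm2 was not called, with a log2 fold change of 0.64 ± 0.44 and an adjusted p of 0.365. The groups overlap for both genes, and vehicle replicate 3 is far below the other vehicle libraries for Cdkn1a. Gdf15, a stress cytokine, had 133, 28 and 44.2 CPM with doxorubicin, against 94.7, 108 and 6.04 CPM with vehicle, so that its log2 fold change of -0.03 ± 0.79 has an error wide enough to hold a change of either sign. Btg2, an antiproliferative target, fell to 22.8, 18.6 and 13.4 CPM with doxorubicin, against 81.5, 85.7 and 60.4 CPM with vehicle (log2 fold change -2.05 ± 0.38, adjusted p = 0.00113), and Ei24, an endoplasmic reticulum protein, had 80.1, 126 and 93 CPM with doxorubicin, against 53.8, 52.7 and 63.2 CPM with vehicle. Ei24 rose by this test, the log2 fold change being 0.82 ± 0.17 (adjusted p = 0.0025). Rrm2b, a subunit of ribonucleotide reductase, was called higher in 3 of the 6 left-out fits (not without doxorubicin replicate 2 or vehicle replicates 1 or 2). Gadd45a was called lower in 1 of the 6 left-out fits (not without doxorubicin replicates 1 or 3 or vehicle replicates 1, 2 or 3). Of the death targets, the receptor Eda2r was called higher in 2 of the 6 left-out fits (not without doxorubicin replicates 2 or 3 or vehicle replicates 1 or 2), and Pmaip1, the BH3-only protein Noxa, in 2 of the 6 left-out fits (not without doxorubicin replicates 2 or 3 or vehicle replicates 1 or 2).

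Of 20 tested genes of the BCL2 family and the caspases 1 rose and 1 fell, and without vehicle replicate 3, 3 rose. Bik, a BH3-only protein that promotes death, had no count in the 3 doxorubicin libraries, against 1.78, 2.49 and 0 CPM with vehicle, at least 28.6-fold lower with the doxorubicin group at its limit of 3 counts; vehicle replicate 3 was at 0 as well, and the call ended without doxorubicin replicate 3. Casp8, the caspase of death receptors, was called higher in 3 of the 6 left-out fits (not without doxorubicin replicate 2 or vehicle replicates 1 or 2).

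Cardiac transcription factors were lower where they were called. Of 20 tested cardiac transcription factors 12 fell and none rose, with a median log2 fold change of -1.79, and 8 to 12 fell when 1 library was left out. Tbx5, a T-box factor of chamber formation, had 1.88, 1.31 and 3.4 CPM with doxorubicin, against 15.2, 14.5 and 18.7 CPM with vehicle. Tbx5 fell by a log2 fold change of -2.87 ± 0.46 (adjusted p = 0.000283). Tbx20, its relative, had 50.8, 58.3 and 43.8 CPM with doxorubicin, against 143, 136 and 267 CPM with vehicle. For Tbx20 the log2 fold change was -1.84 ± 0.29, with an adjusted p of 0.000245. Neither pair of groups overlaps, with all vehicle libraries at more than 2 times the highest doxorubicin library. Prox1, a homeodomain factor, had 3.33, 4.67 and 4.8 CPM with doxorubicin, against 36.2, 36.9 and 25.5 CPM with vehicle. Nkx2-5, the homeodomain factor that marks the heart lineage, had 2.69, 0.684 and 0.762 CPM with doxorubicin, against 68.9, 74.2 and 5.63 CPM with vehicle (log2 fold change -5.13 ± 1.01, adjusted p = 0.00168), where vehicle replicate 3 was far below the other vehicle libraries and still above the highest doxorubicin library. Myocd, the coactivator of serum response factor, fell by a log2 fold change of -2.62 ± 0.48, and Hand1 by -6.30 ± 1.27.

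Contractile proteins did not follow these factors as a group. The sarcomere list had 4 of 15 tested members higher and 1 lower, with 2 higher without vehicle replicate 1 or 2. Myl2, the ventricular light chain, had 2104, 2517 and 1792 CPM with doxorubicin, against 909, 1129.8 and 795 CPM with vehicle. Myl2 rose, with a log2 fold change of 1.18 ± 0.22 and an adjusted p of 0.00109. Tnnt2, given above, rose by a log2 fold change of 1.09 ± 0.27, called in 4 of the 6 left-out fits (not without vehicle replicates 1 or 2), and the slow troponin I gene Tnni1 by 1.09 ± 0.29, called in 4 of the 6 left-out fits (not without doxorubicin replicate 1 or vehicle replicate 3). Mylk3, the kinase of the cardiac light chain, had 8.98, 25.4 and 10.1 CPM with doxorubicin, against 66.9, 63.8 and 60.1 CPM with vehicle. Mylk3 fell by this test, the log2 fold change being -2.10 ± 0.48 (adjusted p = 0.00538). The myosin heavy chains Myh6 and Myh7 were not called (adjusted p = 0.858 and 0.518); they are near-identical neighbours between which reads may be split. In the Z-disc and Xin repeat list 5 of 17 fell and 1 rose, and 9 fell without doxorubicin replicate 2. Xirp1, an actin-binding protein of the intercalated disc, fell to 1.97, 6.53 and 2.23 CPM with doxorubicin, against 77.5, 78.4 and 96.7 CPM with vehicle (log2 fold change -4.57 ± 0.66, adjusted p = 0.000122), and Ldb3, of the Z-disc, to 94.2, 131 and 68 CPM with doxorubicin, against 302, 280.2 and 369.9 CPM with vehicle. Ldb3 fell by a log2 fold change of -1.70 ± 0.26 (adjusted p = 0.000245). Fhl2, a LIM protein, fell by a log2 fold change of -1.34 ± 0.31.

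Genes of electrical excitation in the list read here fell where they were called. The potassium channel genes Kcna3, Kcna6 and Kcnk2, outside that list, rose. In the list of potassium, sodium and pacemaker channels and connexins 11 of 19 tested members fell and none rose, with a median log2 fold change of -1.94, the same value with Kcna5 at its bound; 7 fell without doxorubicin replicate 3 or without vehicle replicate 1 or 2. Gjc1, connexin 45, had 9.28, 5.6 and 6.44 CPM with doxorubicin, against 29.8, 26.5 and 21.4 CPM with vehicle. For Gjc1 the log2 fold change was -1.86 ± 0.28, with an adjusted p of 0.00017. Kcnh2, the hERG channel of repolarisation, had 7.1, 12 and 2.93 CPM with doxorubicin, against 45.6, 52.3 and 18.7 CPM with vehicle. Kcnh2 fell, with a log2 fold change of -2.41 ± 0.45 and an adjusted p of 0.00114. Kcnj11, the pore of the ATP-sensitive channel, had 0.385, 0 and 0 CPM with doxorubicin, against 20.2, 21.9 and 2.47 CPM with vehicle. Kcna5, of the ultrarapid atrial current, had no count with doxorubicin, against 3.53, 6.02 and 0.87 CPM with vehicle, at least 68.8-fold lower. For Kcnh2, Kcnj11 and Kcna5 vehicle replicate 3 was the lowest vehicle library, and none of these genes overlapped between groups.

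Calcium genes moved both ways, 3 of 18 higher and 5 lower. Casq2, the calcium buffer of the sarcoplasmic reticulum, had 1936, 3485 and 2352 CPM with doxorubicin, against 679, 709 and 957 CPM with vehicle. Casq2 rose by this test, the log2 fold change being 1.73 ± 0.26 (adjusted p = 0.000146). Cacnb2, a subunit of the L-type channel, had 2.56, 15.8 and 2.58 CPM with doxorubicin, against 37.7, 36 and 115 CPM with vehicle. Cacnb2 fell by a log2 fold change of -3.18 ± 0.64 (adjusted p = 0.00203). Jph2, which holds the reticulum to the surface membrane, fell by a log2 fold change of -3.07 ± 0.73, and the sodium-calcium exchanger Slc8a1 by -2.02 ± 0.47, a call lost without vehicle replicate 3. The reuptake pump Atp2a2 and the release channel Ryr2 were not called (adjusted p = 0.946 and 0.677); Ryr2 had 135, 681 and 137 CPM with doxorubicin, against 318, 268 and 623 CPM with vehicle. Without doxorubicin replicate 2 or vehicle replicate 1 or 2, 1 member rose, and without vehicle replicate 3, 5 did. In each left-out fit but that without doxorubicin replicate 2, where 6 fell, 3 members fell.

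In the list of receptors that set the heart's response to adrenaline, and their signalling partners, members fell where they were called, with 1 exception. Outside that list the adenylyl cyclase gene Adcy2 rose. The adrenergic receptor gene Adra2c, also outside it, was called higher but not in every left-out fit. Of 18 tested adrenergic and cyclic AMP genes 9 fell and 1 rose, and 8 or 9 fell in every fit that left out 1 library. Akap6, which anchors protein kinase A at the nuclear envelope, had 5.43, 6.47 and 6.33 CPM with doxorubicin, against 67.4, 59.7 and 95.7 CPM with vehicle. For Akap6 the log2 fold change was -3.61 ± 0.33, with an adjusted p of 3.29e-06. Adrb1, the main cardiac beta receptor, had 1.67, 0 and 0.0586 CPM with doxorubicin, against 59.9, 60.5 and 3.94 CPM with vehicle. Adrb1 fell, with a log2 fold change of -6.05 ± 1.19 and an adjusted p of 0.00175. Adra1d, an alpha-1 receptor, had 0.47, 0.746 and 0.586 CPM with doxorubicin, against 22.4, 24.4 and 14.1 CPM with vehicle. Adra1d fell by this test, the log2 fold change being -5.08 ± 0.61 (adjusted p = 2.32e-05). For Akap6 and Adra1d the groups were far apart, whereas for Adrb1 vehicle replicate 3 came near the doxorubicin libraries. Gnas, the stimulatory G protein, had 991, 999 and 928 CPM with doxorubicin, against 491, 490.2 and 338 CPM with vehicle. Gnas rose by a log2 fold change of 1.15 ± 0.19 (adjusted p = 0.000351).

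The natriuretic peptide genes, markers of strain in heart muscle, gave 3 of 9 tested members higher. Nppb, the B-type peptide, had 642, 609.5 and 505 CPM with doxorubicin, against 217, 228 and 196 CPM with vehicle (log2 fold change 1.46 ± 0.37, adjusted p = 0.0115), with tight values in both groups. Nppa, the atrial peptide, had 12774, 6142 and 9464 CPM with doxorubicin, against 4409, 5343 and 1120.3 CPM with vehicle, all doxorubicin libraries above all vehicle libraries, but was not called (adjusted p = 0.0568). Npr1, their receptor, and Mme, the protease that breaks them down, rose by log2 fold changes of 1.16 ± 0.31 and 1.78 ± 0.52, calls made in 5 and 3 of the 6 fits that left out 1 library.

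Genes of the lysosome and autophagy were mostly higher among those called. Of 28 tested members 12 rose and 1 fell, with a median log2 fold change of 0.70 and 8 to 12 higher when 1 library was left out. Becn1, beclin 1, which starts the autophagosome, had 168, 163 and 168 CPM with doxorubicin, against 53.4, 53.7 and 68.8 CPM with vehicle. For Becn1 the log2 fold change was 1.50 ± 0.17, with an adjusted p of 1.84e-05. Lamp1, of the lysosomal membrane, had 1368, 1108 and 1448 CPM with doxorubicin, against 424, 427 and 542 CPM with vehicle. Lamp1 rose, with a log2 fold change of 1.49 ± 0.18 and an adjusted p of 1.97e-05. The doxorubicin values of Becn1 lay close together and above every vehicle library. The protease Ctsb and the autophagosome protein Map1lc3b rose by log2 fold changes of 1.58 ± 0.20 and 1.15 ± 0.18.

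Other parts of protein upkeep were mixed. The proteasome list had 4 of 31 higher and 3 lower, near the background, with Psmd2 at 0.84 ± 0.18 and Psmd11, both of its regulatory particle, at -0.87 ± 0.21 on the log2 fold scale. Without doxorubicin replicate 3 or vehicle replicate 1 or 2, 1 proteasome gene rose, and without doxorubicin replicate 1 or 3, 1 fell. Of 19 genes of endoplasmic reticulum stress 2 fell and 1 rose: Xbp1, a factor of the unfolded protein response, fell by a log2 fold change of -0.87 ± 0.18, with 33.1, 29.6 and 30.4 CPM with doxorubicin, against 58.9, 58.1 and 52.9 CPM with vehicle, and Herpud1 by -1.18 ± 0.26. In that list 4 fell without vehicle replicate 3 and 3 without doxorubicin replicate 2, while 2 rose without doxorubicin replicate 1 or vehicle replicate 3 and none without doxorubicin replicate 3 or vehicle replicate 1. Of 15 heat shock genes 3 rose and 5 fell. Hspd1, the mitochondrial chaperonin, had 1070.3, 1234 and 1219 CPM with doxorubicin, against 349, 362 and 750.2 CPM with vehicle. Hspd1 rose by this test, the log2 fold change being 1.27 ± 0.29 (adjusted p = 0.00529). Dnajb1, a cytosolic partner of HSP70, had 17.9, 12.3 and 10.5 CPM with doxorubicin, against 39.2, 40.5 and 23.8 CPM with vehicle. Dnajb1 fell by a log2 fold change of -1.35 ± 0.32 (adjusted p = 0.00647). When doxorubicin replicate 3 or vehicle replicate 1 or 2 was left out, 1 heat shock gene fell in place of 5, and without doxorubicin replicate 2, 3 did. Without vehicle replicate 3, 5 heat shock genes rose.

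Interferon-stimulated genes gave 3 calls of 31 tested, all higher, with a median log2 fold change of 0.78. Irf7, the factor that amplifies interferon production, had 14.7, 8.09 and 13.8 CPM with doxorubicin, against 2.33, 2.27 and 2.29 CPM with vehicle, with no overlap. Gbp2, a guanylate-binding protein, had 27.7, 31.9 and 49.2 CPM with doxorubicin, against 9.39, 10.3 and 18.6 CPM with vehicle, called in 3 of the 6 left-out fits (not without doxorubicin replicate 3 or vehicle replicates 1 or 2), and Herc6 was called in 2 of the 6 left-out fits (not without doxorubicin replicates 2 or 3 or vehicle replicates 1 or 2). Rsad2, or viperin, was at 8.21, 13.6 and 11.8 CPM with doxorubicin, against 9.85, 10.2 and 9.8 CPM with vehicle, and Isg15 at 7.52, 0.809 and 10.9 CPM with doxorubicin, against 4.97, 4.72 and 9.2 CPM with vehicle; both overlap between groups and neither was called (adjusted p = 0.866 and 0.985). Without vehicle replicate 3, 10 members were called higher, without doxorubicin replicate 3 or vehicle replicate 1 or 2, 1 was, and without both that library and doxorubicin replicate 2, 11. Of 17 NF-kB targets, chemokines and adhesion genes 2 rose and 1 fell; without vehicle replicate 3, 3 rose and 2 fell, in the other left-out fits none fell, and 3 rose without doxorubicin replicate 2 and 1 without doxorubicin replicate 3. Csf1, the macrophage growth factor, had 366, 166 and 293 CPM with doxorubicin, against 90.4, 94 and 98.2 CPM with vehicle. For Csf1 the log2 fold change was 1.55 ± 0.25, with an adjusted p of 0.00036.

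In each list of growth and signal genes most members were not called. The shares over all tested genes were 7.85% higher and 7.24% lower. Rcan1, an inhibitor of calcineurin that calcineurin itself induces, fell to 20.9, 22.7 and 19.6 CPM with doxorubicin, against 119, 129 and 129 CPM with vehicle (log2 fold change -2.58 ± 0.54, adjusted p = 0.00272), the 1 call among 12 tested genes of its list. Inhbb, the activin beta B subunit, had 14.2, 5.91 and 10.2 CPM with doxorubicin, against 0.698, 0.335 and 2.79 CPM with vehicle (log2 fold change 3.00 ± 0.68, adjusted p = 0.00502); of 19 TGF-beta and insulin-like growth factor genes 4 rose and none fell, and 2 rose in each left-out fit but that without vehicle replicate 3. Egr2, an immediate early zinc finger factor, had 7.22, 4.48 and 4.39 CPM with doxorubicin, against 1.09, 1 and 1.74 CPM with vehicle. Egr2 rose, with a log2 fold change of 2.07 ± 0.49 and an adjusted p of 0.00636. In that list of 20 Klf4 was called higher in 2 of the 6 left-out fits (not without doxorubicin replicates 1 or 3 or vehicle replicates 1 or 3) and Dusp1 lower in 1 of the 6 left-out fits (not without doxorubicin replicates 1, 2 or 3 or vehicle replicates 1 or 2). Of 16 clock genes 3 fell, and without doxorubicin replicate 3 none did, while without vehicle replicate 3, 5 did; Per2, a repressor of the clock, had 21.4, 30.5 and 15.6 CPM with doxorubicin, against 47.1, 46.1 and 41.3 CPM with vehicle (log2 fold change -0.99 ± 0.26).

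Matrix genes were higher where called. Of 20 collagens, laminins and other matrix genes 4 rose and none fell, with 8 higher without vehicle replicate 3 and 2 without vehicle replicate 1. Fn1, fibronectin, had 5212, 4333 and 5602 CPM with doxorubicin, against 1422, 1479 and 1972 CPM with vehicle. Fn1 rose by this test, the log2 fold change being 1.64 ± 0.22 (adjusted p = 5.12e-05). Sparc, a collagen-binding glycoprotein, had 6912, 5776 and 5956 CPM with doxorubicin, against 3169.9, 3401 and 2648 CPM with vehicle. Sparc rose by a log2 fold change of 1.02 ± 0.21 (adjusted p = 0.00232). Of 14 metalloproteinases and inhibitors 5 rose and 1 fell, with 2 higher without doxorubicin replicate 1 and 3 without doxorubicin replicate 3 or vehicle replicate 1 or 2. Mmp2, gelatinase A, had 1908, 721 and 1543 CPM with doxorubicin, against 270.2, 279 and 215 CPM with vehicle, and Timp1, an inhibitor of such proteases, had 89, 68.3 and 89.2 CPM with doxorubicin, against 29.8, 34 and 50.4 CPM with vehicle. For Timp1 the log2 fold change was 1.11 ± 0.22, with an adjusted p of 0.00213.

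Markers of other cells were read beside these lists. The fibroblast list had no call among 8 tested members, and its summed level was 26925, 16154 and 19421 CPM with doxorubicin, against 18667, 20382 and 14794 CPM with vehicle; without vehicle replicate 3, 3 of the 8 were called higher. The epicardial list had 3 of 6 higher, 1 without doxorubicin replicate 1 or vehicle replicate 1 or 2, with a summed level of 146, 90.9 and 146 CPM with doxorubicin, against 37.2, 43.4 and 46.2 CPM with vehicle. Its member Upk1b, a uroplakin of mesothelial cells, had 54.8, 23.5 and 73.1 CPM with doxorubicin, against 3.03, 2.86 and 7.19 CPM with vehicle (log2 fold change 3.54 ± 0.42, adjusted p = 2.27e-05), whereas Wt1, the factor that defines the epicardium, was called higher in 1 of the 6 left-out fits (not without doxorubicin replicates 1, 2 or 3 or vehicle replicates 1 or 2). Smooth muscle and pericyte markers had 2 of 9 higher (1 in each left-out fit but that without vehicle replicate 3, which had 2 higher and 1 lower) and summed levels of 2031, 5328 and 1952 CPM with doxorubicin, against 1646, 1763 and 3498 CPM with vehicle. Endothelial markers summed to 46.9, 51.1 and 48.3 CPM with doxorubicin, against 35.3, 33.4 and 37.1 CPM with vehicle; Kdr, the receptor of vascular growth factor, fell to 0.256, 2.67 and 0.351 CPM with doxorubicin, against 10.5, 9.89 and 11 CPM with vehicle (log2 fold change -3.29 ± 0.69, adjusted p = 0.00278), and Flt1 was called higher in 1 of the 6 left-out fits (not without doxorubicin replicates 2 or 3 or vehicle replicates 1, 2 or 3). Macrophage markers summed to 15.8, 17.6 and 12.4 CPM with doxorubicin, against 9.97, 10.8 and 9.34 CPM with vehicle, and 2 of 10 members in the table had no count in the 6 libraries. Their member Cd14 rose to 10.8, 10.8 and 11.2 CPM with doxorubicin, against 2.25, 3.09 and 2.56 CPM with vehicle. Cd14 made up most of the sum with doxorubicin. It was the 1 call among 6 tested members, whose median log2 fold change was -0.28. Neuronal and Schwann markers summed to 10.5, 19.5 and 14.3 CPM with doxorubicin, against 6.44, 6.62 and 8.52 CPM with vehicle, with S100b higher (log2 fold change 2.78 ± 0.52). The erythroid markers summed to 2.09, 0.995 and 2.17 CPM with doxorubicin, against 6.56, 5.06 and 1.05 CPM with vehicle. The cardiomyocyte list summed to 35948, 50084 and 29859 CPM with doxorubicin, against 25108, 26424 and 23555 CPM with vehicle, all doxorubicin libraries above all vehicle libraries, with 3 of 14 called higher and 2 lower. Its mean log2(CPM + 1), which weights the genes alike, was 9.28, 10.04 and 8.92 with doxorubicin, against 9.66, 9.76 and 9.32 with vehicle, so that doxorubicin replicates 1 and 3 were below every vehicle library. Without doxorubicin replicate 2, 4 were called lower, in each other left-out fit 1 was, and without vehicle replicate 1, 1 was called higher. The part of the epicardial, smooth muscle and cardiomyocyte shares in the matrix and contractile results was not tested.

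The response was then set against the doxorubicin responses with the other mimic conditions, which share no library with it. With the miR-222 mimic doxorubicin changed 2093 genes (14.6%; 7.76% higher and 6.87% lower), with the miR-455 mimic 2593 (18.1%; 9.02% higher and 9.11% lower), and under the control mimic 3936 (27.5%; 15.2% higher and 12.3% lower). Doxorubicin replicate 1 of the control mimic had 38.2% mitochondrially encoded counts and 11469 genes at 10 counts or more, the fewest of the 24 libraries. It differed from replicates 2 and 3 of its group by a chi-square of 562 and 325 per degree of freedom. The part of that library in the calls of the control mimic arm was not tested. Of the 1123 genes higher with both mimics, 850 (75.7%) were also higher in the miR-222 arm, 762 (67.9%) in the miR-455 arm and 836 (74.4%) in the control mimic arm; these were 76.6%, 59.1% and 38.5% of those arms' higher calls. Of the 1035 lower genes, 705 (68.1%), 703 (67.9%) and 595 (57.5%) were lower there too, being 71.7%, 54.0% and 33.7% of those arms' lower calls. A call in the opposite direction was seen for 1 gene with miR-455 and for 9 genes with the control mimic, 1 of those higher and 8 of those lower with both mimics, and for no gene with miR-222. In the 1110 genes called higher with the miR-222 mimic, the median log2 fold change was 1.15 with both mimics, 1.12 with miR-455 and 1.50 with the control mimic. In the 983 called lower with miR-222 it was -1.32 with both mimics, -1.38 with miR-455 and -1.27 with the control mimic.

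Fold changes of the named genes in the 4 arms are shown in the plot of arms. The log2 fold change of Pdhb was 1.66 with both mimics, 1.69 in the miR-222 arm, 1.41 in the miR-455 arm and 2.05 in the control mimic arm. That of Akap6 was -3.61, -3.62, -3.64 and -3.97 in the same order, and that of Abcb1a 2.35, 2.39, 3.10 and 2.86. Other genes had values further apart. Nppb had log2 fold changes of 1.46 with both mimics, 0.55 in the miR-222 arm, 0.68 in the miR-455 arm and 0.04 in the control mimic arm, and it was called with both mimics, although the difference from the control mimic arm did not pass (adjusted p = 0.233). For Cdkn1a the values were -0.24, 0.41, 0.65 and 2.59, called with the control mimic, and that difference did not pass either (adjusted p = 0.152). Interferon-stimulated genes called higher numbered 3 with both mimics, 2 under miR-222, 24 under miR-455 and 19 under the control mimic, of 31 tested; no member passed the test of a difference in response, and Rsad2, at -4.24 ± 0.81 log2 units for both mimics minus miR-455, had an adjusted p of 0.493. Of the 42 respiratory chain genes 19, 21, 25 and 35 were higher in that order of arms, and of the 17 p53 arrest targets 2, 2, 1 and 6, with no member passing the test of a difference from the control mimic arm.

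**Figure D4:**
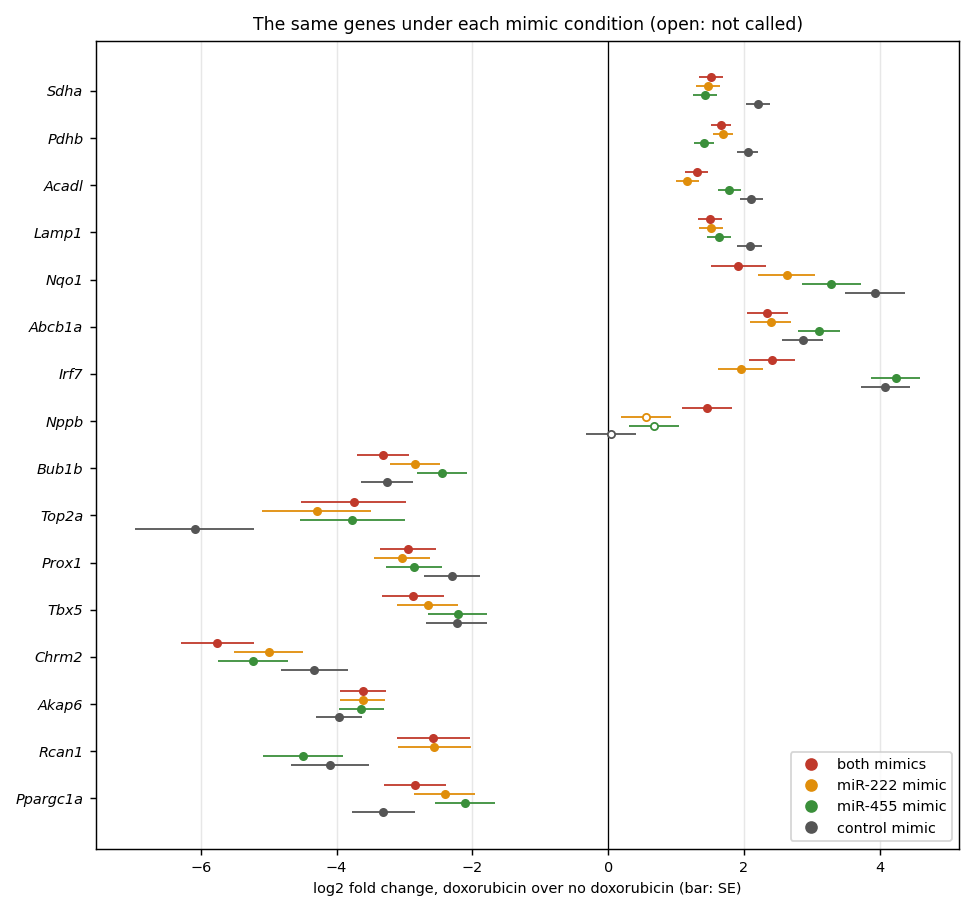
Log2 fold change of doxorubicin over vehicle with its SE for 16 genes chosen as examples of the lists, in cells with both mimics, the miR-222 mimic, the miR-455 mimic or the control mimic (3 libraries against 3 each); open points were not called. The 4 points lie close for Pdhb, Abcb1a and Akap6, while Nppb stood at 1.46 with both mimics and 0.04 with the control mimic.

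The direct test of a difference between the response with both mimics and that with the control mimic called 8 of 14303 genes (0.0559%), 1 with the higher response under both mimics (0.00699%) and 7 with the lower (0.0489%), with 2002 genes at an unadjusted p under 0.05. Of these, 6 carry gene names and 2 carry only placeholder symbols. Hccs, the lyase that joins heme to cytochrome c, had 12.1, 13.1 and 10.1 CPM with doxorubicin and 27.8, 28.6 and 30.5 CPM with vehicle in cells with both mimics, against 108, 68.7 and 80.5 CPM with doxorubicin and 70.9, 60.4 and 56.8 CPM with vehicle in cells with the control mimic. It thus fell with doxorubicin under both mimics (log2 fold change -1.30 ± 0.21) and was 0.45 ± 0.21 under the control mimic, a difference of -1.75 ± 0.30 (adjusted p = 0.0318). Nap1l4, a histone chaperone, had 45.3, 44.3 and 39.3 CPM with doxorubicin and 62.3, 68 and 89.4 CPM with vehicle under both mimics, against 179, 176 and 155 CPM with doxorubicin and 126, 94.4 and 97.5 CPM with vehicle under the control mimic, a difference of -1.45 ± 0.25 in log2 fold change (adjusted p = 0.0318). In the vehicle libraries, too, both genes were lower with both mimics than with the control mimic, with no overlap. Arl2bp, a partner of the small G protein ARL2, was called neither way under both mimics (56.6, 42.8 and 58.1 CPM with doxorubicin, 53.2, 53.4 and 50.7 CPM with vehicle) and rose under the control mimic (177, 174 and 169 CPM with doxorubicin and 74.8, 73 and 80.2 CPM with vehicle), a difference of -1.19 ± 0.21 (adjusted p = 0.0379). Nedd9, a scaffold of focal adhesions, had 37, 39.1 and 45.9 CPM with doxorubicin and 32.2, 25.5 and 44.9 CPM with vehicle under both mimics, against 21.7, 19.9 and 12.7 CPM with doxorubicin and 57.1, 44.5 and 56.4 CPM with vehicle under the control mimic, where it fell; the difference was 1.79 ± 0.33 (adjusted p = 0.0492).

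For Adra1d the vehicle libraries with both mimics lay above those with the control mimic: it stood at 0.47, 0.746 and 0.586 CPM with doxorubicin and 22.4, 24.4 and 14.1 CPM with vehicle under both mimics, against 1.01, 4.64 and 1.55 CPM with doxorubicin and 1.15, 3.09 and 5.76 CPM with vehicle under the control mimic (difference -4.63 ± 0.78, adjusted p = 0.0318). Its log2 fold change was -4.30 with miR-222 and -2.95 with miR-455. Slc4a1, the anion exchanger of red cells, had 1.92, 0.995 and 2.17 CPM with doxorubicin and 6.56, 5.06 and 1.05 CPM with vehicle under both mimics, against 0, 2.94 and 1.99 CPM with doxorubicin and 0 in all vehicle libraries under the control mimic, so the size of its fitted difference is not a measured fold. No gene passed the corresponding test against the miR-222 arm (136 at an unadjusted p under 0.05) or the miR-455 arm (606), nor the test of a response beyond the sum of the changes that each mimic alone brought to it (513), while DESeq2 called 3, 27 and 4 genes in these tests. The number of calls against the control mimic arm depended on the fit: DESeq2 called 380, edgeR with only the 4 groups concerned or without a filter on low counts called none, and leaving out vehicle replicate 3 with both mimics gave 894. It called 31 without doxorubicin replicate 1 with both mimics and 9 without doxorubicin replicate 2 with both mimics. Of the control mimic, leaving out doxorubicin replicate 1 gave 16 and leaving out vehicle replicate 3 gave 12. Leaving out doxorubicin replicate 2 of the control mimic gave 2, of which 1 was among the 8. Leaving out its doxorubicin replicate 3 gave 1, which was not among the 8. None of the 8 was called without doxorubicin replicate 3 or vehicle replicate 1 or 2 with both mimics, without vehicle replicate 1 or 2 of the control mimic, or with a replicate block; those fits called no gene.

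**Figure D5:**
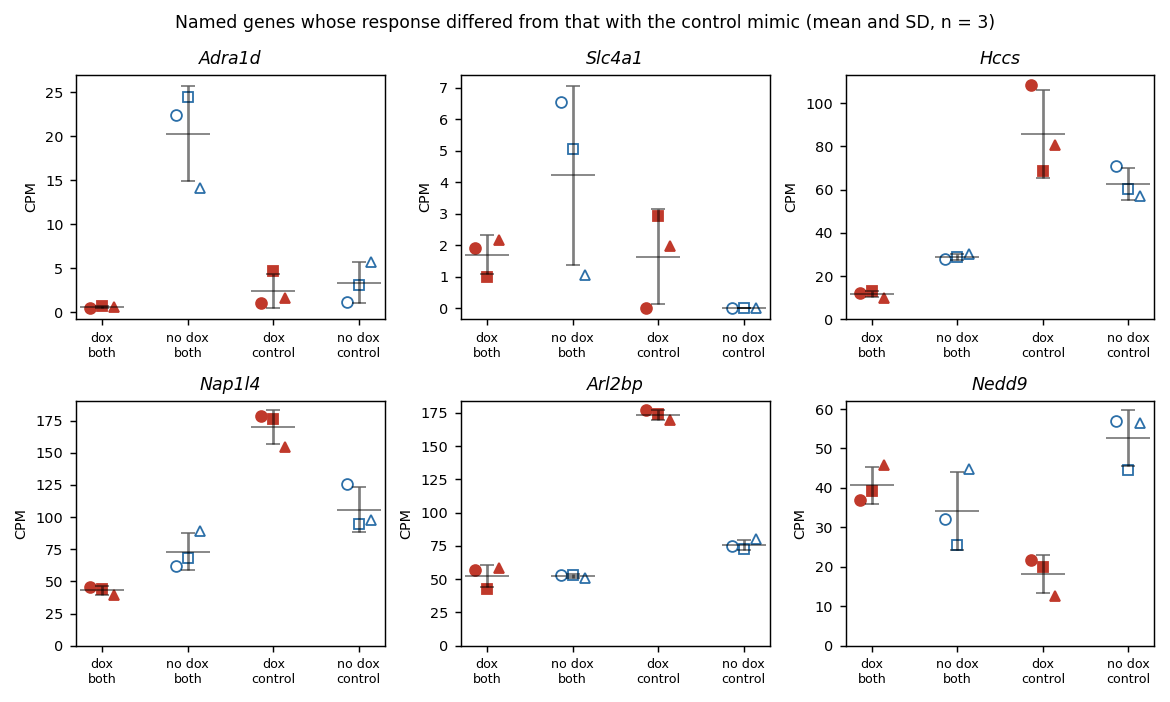
CPM of the 6 named genes whose doxorubicin response differed between both mimics and the control mimic, in doxorubicin and vehicle libraries under both mimics and then under the control mimic; points are replicates, lines and bars the mean and SD of 3. Hccs is lower with doxorubicin than with vehicle under both mimics and overlaps between doxorubicin and vehicle under the control mimic, and Slc4a1 is at 0 in all 3 vehicle libraries with the control mimic.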

How the data were processed

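PolyA RNA of cultured neonatal rat ventricular myocytes was measured in 24 libraries, 8 groups of 3. The authors deposited 1 table of expected counts for 21767 gene symbols; per the submitters' processing notes Salmon, DESeq2 and the build Rnor_6.0 were used, without versions or roles, and the table calls itself filtered by a rule not given in the sources used here. Since 7.35% of the values were not whole, they were rounded; 3089 genes were then at 0 in every library. Groups follow the treatment labels. Genes passing filterByExpr (14303) were scaled by TMM and tested with edgeR 4.0.16 (limma 3.58.1, R 4.3.3), quasi-likelihood F, on a model of all 8 groups; DESeq2 1.42.0 was an alternative, as were other scalings, filters, a replicate block and fits that left out libraries. Tables and figures were made in Python 3.11.15 with pandas 2.3.3 and matplotlib 3.10.9. A standard error is the absolute log2 fold change over the square root of F. Folds against a group at 0 use a limit of 3 counts over the group, which covers counting error only. The script was tested on simulated data.

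The members and gene lists were chosen with earlier results of these data known. Named genes are the 10 called genes with the largest rise and the 10 with the largest fall among named symbols at 5 CPM or more in the higher group without overlap, 6 genes at 0 with vehicle, at most 4 genes per list, taken in order of p, the leading genes of each difference of responses and a fixed set of marker genes; a few of these are not reported here. The deviations of same-numbered libraries from their group means had r of 0.45, -0.23 and 0.20 for numbers 1, 2 and 3. This check cannot decide whether the numbers are pairs, because vehicle replicates 1 and 2 are so close. Doxorubicin replicate 1 had r of 0.45 with both. The numbers were not taken as pairs. Salmon assigns reads that match several transcripts by estimation, so near-identical genes such as Myh6 and Myh7 or Acta1 and Actc1 are uncertain.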

Additional observations from a re-analysis of the deposited data

Results flagged for a closer look

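The doxorubicin response with both mimics differed from that with the control mimic for 8 genes by a test of the difference itself, edgeR's quasi-likelihood F test, each over 3 libraries per group. None of these calls was made without doxorubicin replicate 3, vehicle replicate 1 or vehicle replicate 2, whether of both mimics or of the control mimic. Nor was any made with a replicate block, without a filter on low counts, with the 4 groups alone or with the close libraries summed. Without doxorubicin replicate 2 of the control mimic 1 of the 8 was made. The difference in log2 fold change, both mimics minus control mimic, was -1.75 ± 0.30 for Hccs (adjusted p = 0.0318), -1.45 ± 0.25 for Nap1l4 (adjusted p = 0.0318), -4.63 ± 0.78 for Adra1d (adjusted p = 0.0318) and -1.19 ± 0.21 for Arl2bp (adjusted p = 0.0379). It was 1.79 ± 0.33 for Nedd9 (adjusted p = 0.0492) and -9.51 for Slc4a1, whose control mimic vehicle libraries were all at 0, so that this fitted value is no measured fold. The 2 placeholder symbols were LOC306766, at -1.42 ± 0.24 (adjusted p = 0.0318), and RGD1310352, at -1.25 ± 0.21 (adjusted p = 0.0318). LOC306766 had 55.9, 38.2 and 45.8 CPM with doxorubicin and 38.5, 32.7 and 30.8 CPM with vehicle under both mimics, and RGD1310352 had 54.7, 47.5 and 55.2 CPM with doxorubicin and 37.2, 39.4 and 40.8 CPM with vehicle. Under the control mimic their log2 fold changes were 1.87 and 1.67, against 0.46 and 0.42 under both mimics.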

How the results depend on the processing

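The number of genes called for doxorubicin with both mimics (2158) was 2121 with DESeq2 size factors (1200 higher and 921 lower, a larger share higher). It was 3004 with DESeq2's test, 1848 without a filter and 2158 with a filter of 1 CPM. With a replicate block, where the replicate numbers are not known to pair the libraries, it was 1853. It was 5 in edgeR with the 2 groups alone and 1330 to 2914 when 1 library was left out. Alternatives chosen after seeing the data gave 2820 without the fewest-gene library of each group, 1352 with vehicle replicates 1 and 2 summed as 1 library, and 1340 with DESeq2 on the 6 libraries. In all, 1721 calls (79.7%) held with size factors, with DESeq2, without a filter, at 1 CPM and with the replicate block; the 2-group fit and the left-out libraries are not among these 5 settings. The difference from the control mimic arm gave 8 calls in the main setting, 7 with size factors, 380 with DESeq2, 13 at 1 CPM, 548 without the fewest-gene libraries, 0 without a filter, with the replicate block, with the 4 groups alone or with the close libraries summed, and 0 to 894 with 1 library left out. The difference from miR-222 gave 3 with DESeq2 and 0 to 1 with 1 library left out; that from miR-455 gave 27 with DESeq2, 1 without the fewest-gene libraries and 0 to 1 with 1 library left out; the response beyond the sum gave 4 with DESeq2. The cause was not tested.

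Log2 fold changes near 0 turned sign. Without the fewest-gene libraries they were -0.16 for Cd68, -0.63 for Myh6 and -0.042 for Myh7; with close libraries summed 0.041 for Cdkn1a and 0.33 for Gdf15. Arl2bp was at -0.000179 without a filter and -0.00325 with the replicate block. Gdf15 was at 0.0052 with size factors, 0.0047 with DESeq2, 0.0054 at 1 CPM and 0.0022 with DESeq2 on the 6 libraries; Atp2a2 was at 0.0030 with size factors and with DESeq2. With 1 library left out the ranges were 0 to 9.5 for Rnf113a1, -0.0023 to 1.51 for Tcf21, -0.20 to 1.38 for Cd68, -0.076 to 0.13 for Arl2bp, -0.65 to 0.42 for Myh6, -0.84 to 0.13 for Cdkn1a, -0.95 to 0.44 for Gdf15, -0.60 to 0.16 for Atp2a2 and -1.56 to 0.14 for Ryr2. The replicate block changed no called named gene's direction and took the call from 12 named genes, of 203 fitted whether called or not. The 2-group edgeR fit took it from 138, of 197 fitted whether called or not. The other 59 were mostly called in neither fit, as the 2-group fit called 5 genes in all. Depth limits the genes at or near 0 with vehicle or doxorubicin.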

Other observations

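A few genes were called in opposite directions in 2 arms that share no library, and they were named after their values were seen. Mpc2, a subunit of the mitochondrial pyruvate carrier, had 12, 5.97 and 5.45 CPM with doxorubicin and 32.3, 36.1 and 8.06 CPM with vehicle under both mimics (log2 fold change -1.70 ± 0.50), against 43.4, 45.2 and 77.3 CPM with doxorubicin and 9.07, 19.6 and 36.2 CPM with vehicle under the control mimic (1.36 ± 0.49). Acsl1, the acyl-CoA synthetase, had log2 fold changes of -2.10 ± 0.69 under both mimics and 1.98 ± 0.69 under the control mimic, and vehicle replicate 3 with both mimics, at 63.5 CPM, was far below the other vehicle libraries at 228 and 229 CPM. Rab5b, a GTPase of early endosomes, had 62.6, 44.0 and 60.3 CPM with doxorubicin and 84.7, 91.0 and 67.1 CPM with vehicle under both mimics, against 127, 133 and 134 CPM with doxorubicin and 89.5, 105 and 95.4 CPM with vehicle under the control mimic. Psmb2, a proteasome subunit, went the other way, at 0.59 ± 0.19 under both mimics and -0.52 ± 0.19 under the control mimic. Dtwd1, Nap1l4, Rtn4rl1, Scamp1 and Syt7 also fell under both mimics and rose under the control mimic. Of these calls with both mimics, that of Nap1l4 alone was made in all 6 fits that left out 1 library of the comparison. Of these 9 genes Nap1l4 passed the test of the difference; for the other 8 its adjusted p ran from 0.0754 to 0.0887. With the miR-455 mimic the 1 such gene was Tmem183a, at 0.68 ± 0.18 under both mimics and -0.54 ± 0.18 under miR-455, where the difference did not pass (adjusted p = 0.493); its call under both mimics was not made in every fit that left out 1 library.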
